A study of Mus musculus with 4 samples.

Results

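The Wnt pathway genes described here are 55 genes of the mouse array whose symbols name Wnt ligands, Frizzled, Lrp5 or Lrp6 and Lgr receptors, the Dkk and Sfrp antagonists, Dishevelled proteins, Axin1, Axin2, Apc, Gsk3a, Gsk3b, Ctnnb1 and the Tcf/Lef factors. The list of symbols holds no measured value, though it was drawn up with earlier results of these data known, and its genes are 55 of the 24185 genes and 74 of the 55681 probes on the array. The data are RNA immunoprecipitation (RIP) microarrays, in which RNA recovered with an antibody against the RNA-binding protein CPEB2 is set against RNA recovered with control IgG. Cortical and hippocampal lysate came from 8-week-old male C57BL/6 mice with no genetic change named in the labels, and beads bound to CPEB2 IgG or control IgG were incubated with it for 3 hours. There were 2 experiments, and in each 1 lysate was shared out over both antibodies, so the 4 one-color arrays form 2 pairs of 1 CPEB2 IgG and 1 control IgG array. One label disagrees with the others, as the description of the CPEB2 IgG arrays speaks of CPEB3 IgG while title, source and protocol say CPEB2, the name used here. How many mice went into each lysate is not given in the sources used here, so p-values measure the spread between these samples, which may be technical. In limma the spread of each gene is drawn toward that of all genes, so a p-value does not rest on the SD printed beside it alone. No array of the input lysate is analysed here, and each value compares the 2 antibodies. For differences between the 2 experiments, whose lysates differ, fewer cells of a type and less RNA per cell cannot be told apart.

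Wnt ligands are secreted lipid-modified glycoproteins that bind Frizzled receptors together with the co-receptors Lrp5 and Lrp6. Without ligand, a destruction complex built on Axin and Apc lets the kinases Gsk3a and Gsk3b mark beta-catenin (Ctnnb1) for degradation. With ligand, Dishevelled proteins recruit Axin to the membrane, beta-catenin accumulates and acts with Tcf/Lef factors on target genes, and other branches act without beta-catenin. In the brain the pathway is known for patterning, neurogenesis, axon growth and synapse assembly. CPEB2 belongs to a family of proteins that bind cytoplasmic polyadenylation elements (CPEs), U-rich motifs in the 3'-untranslated regions of mRNAs, and control translation.

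Each probe is 60 bases long, and 30 bases of those that the results turn on are given in the sense of the mRNA, as DNA letters. Positions follow the annotation of the array, which uses the mouse build mm9. No mm9 gene annotation was used here, so exon or untranslated region is not given. The first set is shown because these probes hold the CPE letters TTTTAT or TTTTAAT, in capitals.
Axin2, downstream probe, chr11:108812034-108812093, plus strand: tgtagcctttattaaaaTTTTATatttttc
Dvl2, upstream probe, chr11:69823260-69823319, plus strand: tttagctttattTTTTATaagctttttggg
Sfrp2, single probe, chr3:83577864-83577923, plus strand: tttcgttgctcgTTTTATgccctcatgagc
Dkk1, single probe, chr19:30621424-30621483, minus strand: tacctgtaaatgcagcaaaacTTTTAATta
The second set, without these letters, holds the other probes of Axin2 and Dvl2, and the genes with the largest rise and the largest fall.
Axin2, upstream probe, chr11:108803927-108803986, plus strand: ttattattgctactccaaatgcaaaagcca
Dvl2, downstream probe, chr11:69825744-69825803, plus strand: ccccaaactgggtacgattagtagcatgat
Fzd1, single probe, chr5:4754003-4754062, minus strand: acataggacctaaatttatctatgtctgtc
Dvl3, single probe, chr16:20531470-20531529, plus strand: ccagggcgtgacctggcctcggtgcccccg

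Fzd1, Axin2, Lgr5 and Dvl2 had the highest ratios with CPEB2 IgG among the members well above background on every array. Among the 52 members that could be tested, 20 were higher with CPEB2 IgG and 2 were lower (limma, adjusted p under 0.05), and 30 did not pass. One of the 2, Wnt8a, was well above background with control IgG only and so could be tested only as the lower one. Of all 19698 genes tested, 21.2% were higher and 20.4% were lower, and of the members tested 38.5% and 3.85% were. The median log2 ratio was 0.50 over the members and -0.11 over all genes tested. With ratios centred within bins of the GC content of the probes, 24 members were higher and 6 lower, where 23.1% and 19.4% of all genes were, and the 22 members past the threshold before centring kept their calls. The members Dkk1, Dkk2 and Wnt3a were not well above background on any array and were not tested. Of the tested members, 47 were well above background on every array. The 20 genes that were higher had both CPEB2 IgG arrays above both control IgG arrays, and the 2 that were lower had both below. This separation is on the same arrays as the test and adds no separate support.

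**Figure D1:**
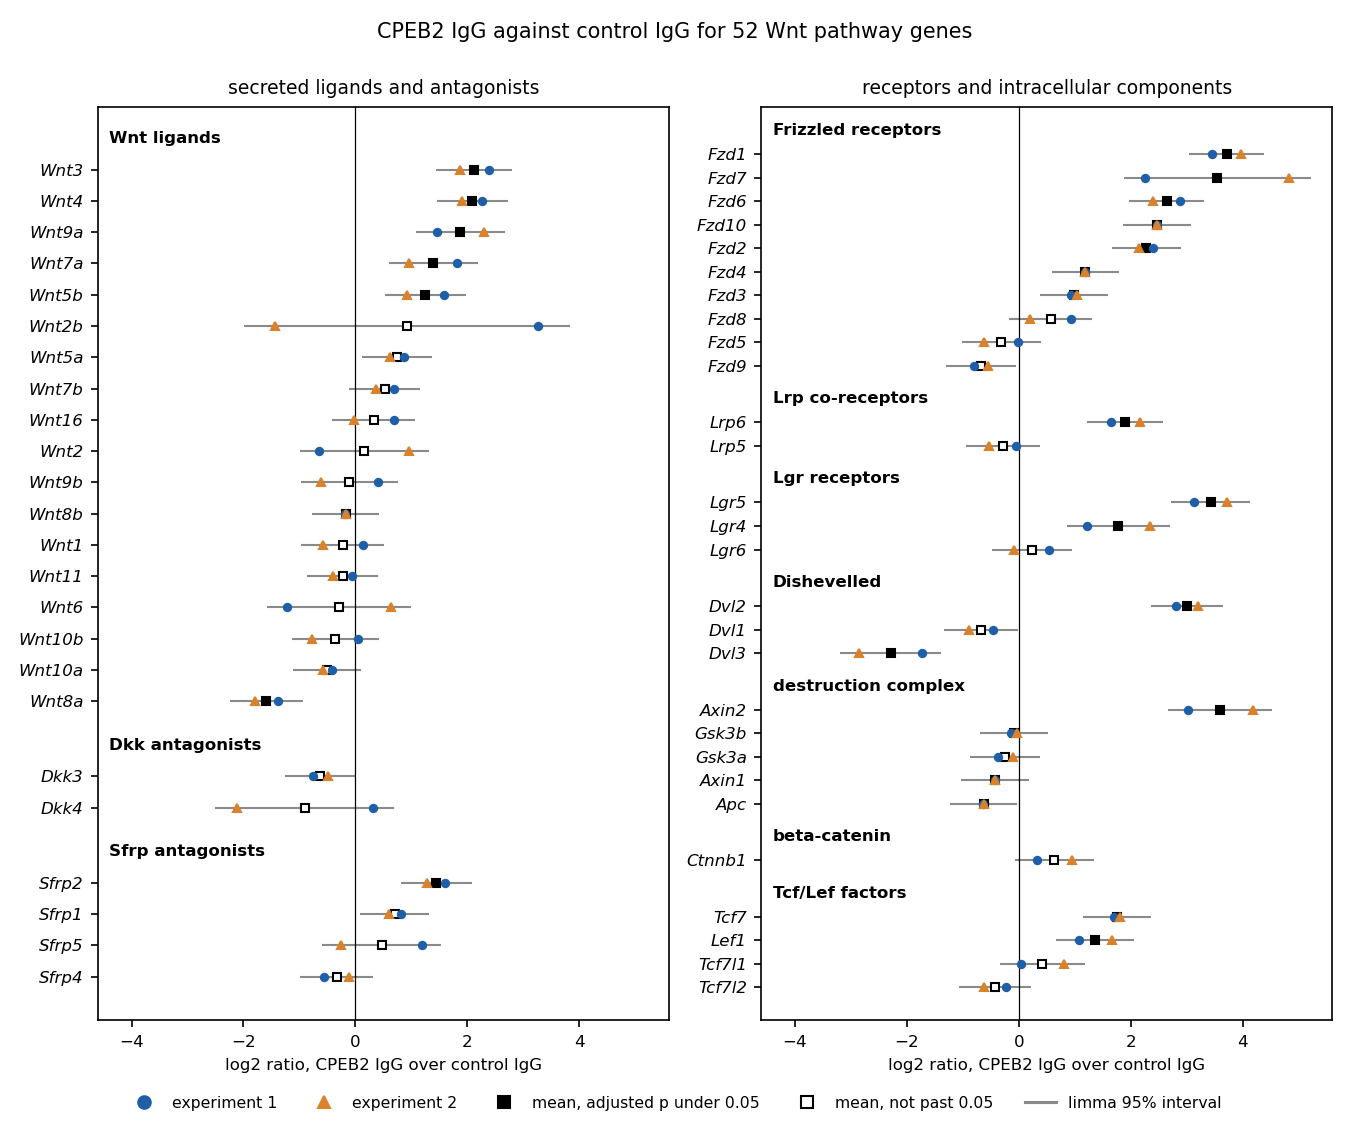
Log2 ratio of CPEB2 IgG over control IgG (x axis) for the 52 tested members by role, with the 2 experiments as a circle and a triangle, their mean as a square (filled where the limma adjusted p was under 0.05) and the limma 95% interval as a line. Among the Frizzled receptors 7 of 10 squares are filled and lie above 0, and 1 of 5 in the destruction complex is filled. Of all genes tested, 21.2% were higher, and differences between roles were not tested.

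Frizzled receptors, membrane proteins that bind Wnt ligands, were the group with the most members higher with CPEB2 IgG. Of the 10 Frizzled genes, 7 were higher, 3 did not pass, and the median log2 ratio was 1.73. Of all genes tested, 21.2% were higher and 20.4% were lower, with a median log2 ratio of -0.11. Differences between roles were not tested. Fzd1 gave raw signals of 1994 and 2464 with CPEB2 IgG, against 192 and 159.9 with control IgG. Its log2 ratio of 3.72 ± 0.36 (SD, n = 2 experiments, adjusted p = 0.00543 from limma) was the largest of the members, a 13.1-fold difference. Fzd7 gave 148 and 169 with CPEB2 IgG, against 32.6 and 5.99 with control IgG, and the second control IgG array was not well above background. Its log2 ratio was 2.26 and 4.84 in the 2 experiments (mean 3.55, adjusted p = 0.0141), and the ratio of experiment 2 rests on a dim control value, so neither the mean nor its rank is firm. With normexp background correction the log2 ratio of Fzd7 was 1.51, and with the mean of its probes 2.43. Its other probe, further upstream, was dimmer with 36.4 and 46.3 against 21.2 and 13.9 and was also higher, by 1.31 (adjusted p = 0.0402 over all probes). Fzd6, a receptor linked to planar polarity, had raw signals of 289 and 244 against 41.5 and 46.9, a log2 ratio of 2.64 ± 0.34 (SD, n = 2, adjusted p = 0.00543), which was 1.51 with normexp. Fzd10 was close behind with 315 and 307 against 60.2 and 56.6 and 2.47 ± 0.01 (SD, n = 2, adjusted p = 0.00543), and its experiments differed by the least among these. Both probes of Fzd2 were higher. The brighter one read 692 and 689 against 138 and 157, a log2 ratio of 2.28 ± 0.18 (SD, n = 2, adjusted p = 0.00554), and the downstream one 184 and 279.7 against 30.8 and 29.5, a log2 ratio of 2.96 ± 0.43 (SD, n = 2). These 5 receptors were each above a log2 ratio of 2.

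Fzd4 and Fzd3 were higher by less, near a ratio of 2. Fzd4, the receptor of the ligand Norrin in blood vessels, read 339 and 356 with CPEB2 IgG, against 158 and 159 with control IgG, and its log2 ratio was 1.19 and 1.19 in the 2 experiments (adjusted p = 0.017). Fzd3, which guides axon tracts in the developing brain, read 183 and 231 against 101 and 114, a log2 ratio of 0.99 ± 0.07 (SD, n = 2, adjusted p = 0.0273). The remaining Frizzled genes, Fzd5, Fzd8 and Fzd9, were dim, with raw signals from 31.2 to 224, and had log2 ratios of -0.31, 0.57 and -0.67, none past the threshold. Fzd8 passed as higher after quantile normalization or centring within GC bins, and Fzd9 as lower after GC centring, without the replicate block or with all 4 arrays well above background. When 1 array was left out, these fits had no block for the experiment, since the pair is broken, and took the spread from the 2 arrays of the other antibody, so a call lost there does not show a smaller ratio. Fzd7 was then not past the threshold without CPEB2 IgG replicate 1 (log2 ratio 3.65, adjusted p = 0.0967) or replicate 2 (3.46, adjusted p = 0.125), nor Fzd4 without control IgG replicate 1 (1.15, adjusted p = 0.0597). For Fzd3 this held without CPEB2 IgG replicate 2 (0.83, adjusted p = 0.0735), control IgG replicate 1 (0.88, adjusted p = 0.14) and control IgG replicate 2 (1.11, adjusted p = 0.072). All stayed above 0.

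The co-receptors parted, with Lrp6 higher and Lrp5 not past the threshold. Lrp6 was the brightest member among those that were higher, at raw signals of 11748 and 7943 with CPEB2 IgG, against 3991 and 1808 with control IgG. Its log2 ratio was 1.90 ± 0.37 (SD, n = 2, adjusted p = 0.00761), and experiment 1 was brighter than experiment 2 with either antibody. The upstream probe of Lrp6 read 392 and 287 against 197 and 179, a log2 ratio of 0.89 that did not pass over all probes (adjusted p = 0.0737). Lrp5 read 1660 and 1155 against 1809 and 1687, a log2 ratio of -0.28 with a 95% interval from -0.95 to 0.39 (adjusted p = 0.423). The difference between the 2 co-receptors was not tested.

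Of the Lgr receptors, which bind R-spondins and raise the level of Frizzled at the membrane, Lgr5 and Lgr4 were higher. That is 2 of 3, where 21.2% of all genes tested were higher. Lgr5 is a stem cell marker in several epithelia. At its only probe well above background on any array, it read 1537 and 587 with CPEB2 IgG, against 186 and 45.1 with control IgG. Both arrays of experiment 1 were brighter than those of experiment 2, but the ratio was alike in the 2 experiments, at 3.13 and 3.73 on the log2 scale (adjusted p = 0.00543, a 10.8-fold difference). Lgr4 was dimmer, with 77.7 and 124 against 35.5 and 24.7 and a log2 ratio of 1.78 ± 0.81 (SD, n = 2, adjusted p = 0.0177) that was 0.76 with normexp. Lgr6 read 140.5 and 36.1 against 102 and 38.9, so it followed the experiment more than the antibody, with a log2 ratio of 0.23 (adjusted p = 0.538). When 1 CPEB2 IgG array was left out, with the spread taken from the 2 control IgG arrays and no block, Lrp6 and Lgr5 were not past the threshold but kept large ratios. Lrp6 had a log2 ratio of 1.62 without CPEB2 IgG replicate 1 (adjusted p = 0.109) and 2.18 without replicate 2 (adjusted p = 0.0744), and Lgr5 had 2.74 (adjusted p = 0.118) and 4.12 (adjusted p = 0.0659).

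Among the 18 Wnt ligands tested, 5 were higher, 1 was lower and 12 did not pass, with a median log2 ratio of 0.24. Over all genes tested, 21.2% were higher and 20.4% were lower. Wnt4 and Wnt9a were the brightest of those that were higher. Wnt4 read 3967 and 3201 with CPEB2 IgG, against 872 and 863 with control IgG, a log2 ratio of 2.09 ± 0.25 (SD, n = 2, adjusted p = 0.00614) and a ratio of 4.26. Its upstream probe was dim, at 74.6 and 80.9 against 69.8 and 104, with a log2 ratio of -0.08 (adjusted p = 0.863). Thus the rise of Wnt4 was seen by 1 of its 2 probes, and their mean was 1.00. Wnt9a read 1496 and 2826 against 577 and 584, a log2 ratio of 1.88 ± 0.60 (SD, n = 2, adjusted p = 0.0106), with the larger ratio in experiment 2. Wnt3, whose loss arrests early patterning of the embryo, was dim but had a similar ratio, with 179 and 165 against 36.4 and 45.7 and a log2 ratio of 2.13 ± 0.36 (SD, n = 2, adjusted p = 0.00642) that was 1.13 with normexp. Wnt7a, a ligand with known roles at synapses, read 530.2 and 257 against 158 and 134, and its ratio was larger in experiment 1, at 1.83 and 0.97 on the log2 scale (adjusted p = 0.0231). Wnt5b, which acts mainly outside the beta-catenin branch, read 767 and 577 against 271 and 309 and had 1.58 and 0.92 (adjusted p = 0.0236). With 1 control IgG array left out, and the spread taken from the 2 CPEB2 IgG arrays, Wnt7a had 1.49 without replicate 1 (adjusted p = 0.0651) and 1.30 without replicate 2 (adjusted p = 0.0917), and Wnt5b had 1.13 without replicate 1 (adjusted p = 0.0745).

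Wnt8a was the ligand that was lower, but at the bottom of the signal range. With CPEB2 IgG it read 8.6 and 8.7, not well above background on either array, whereas it read 23.9 and 30.7 with control IgG. Against the lowest signals well above background on the CPEB2 IgG arrays, it was at least 1.92-fold higher with control IgG (fitted log2 difference -1.59, adjusted p = 0.00991). It passed the filter on dim probes through the control IgG arrays alone, so its p is a description, and it was not tested where all 4 arrays had to be well above background. With normexp background correction, whose added offset of 50 is above all of these signals, the log2 difference was -0.22 and the call was lost. The 12 ligands that did not pass were Wnt1, Wnt2, Wnt2b, Wnt5a, Wnt6, Wnt7b, Wnt8b, Wnt9b, Wnt10a, Wnt10b, Wnt11 and Wnt16, with log2 ratios from -0.50 to 0.92. Wnt1, which patterns the midbrain, was the brightest of them, with 911 and 666 against 880.0 and 1009 and a log2 ratio of -0.22 (adjusted p = 0.568). Wnt2b showed the widest spread, with log2 ratios of 3.26 and -1.43 in the 2 experiments at raw signals from 6.88 to 62.3. Wnt5a, the paralog of Wnt5b, had 0.75 (adjusted p = 0.0623), and it was above 0 in both experiments. It passed as higher under 7 of 13 alternatives, among them quantile normalization, median centring, normexp and an intensity trend. With centring within GC bins Wnt7b also passed as higher and Wnt10a as lower.

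The secreted antagonists gave 1 call, where 21.2% of all genes tested were higher and 20.4% were lower. Sfrp2, which binds Wnt ligands outside the cell, read 159 and 104 with CPEB2 IgG, against 55.3 and 43.5 with control IgG, a log2 ratio of 1.45 ± 0.23 (SD, n = 2, adjusted p = 0.0117). With normexp it was 0.72, still past the threshold. Without control IgG replicate 2 it was 1.30 and not past it (adjusted p = 0.0571, with the spread taken from the CPEB2 IgG arrays). The other Sfrp genes, Sfrp1, Sfrp4 and Sfrp5, had log2 ratios of 0.71, -0.34 and 0.47. Sfrp1 passed as higher under 5 of 13 alternatives, quantile normalization and median centring among them. Of the Dkk proteins, most of which block Lrp5 and Lrp6, Dkk3 and Dkk4 were tested and did not pass. Dkk3, which differs from its relatives in not acting as a plain Lrp antagonist, was bright, with 2231 and 2753 against 3999 and 3929 and a log2 ratio of -0.62 ± 0.19 (SD, n = 2, adjusted p = 0.0969). Both CPEB2 IgG arrays lay below both control IgG arrays for Dkk3. It passed as lower after quantile normalization, normexp background correction, centring within bins of GC content, a raw signal above 1000 or an intensity trend in limma. Dkk4 stayed between 5.2 and 22.8, and the experiments went opposite ways (0.32 and -2.12).

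The 3 Dishevelled genes, which encode the cytoplasmic proteins that relay the signal from Frizzled to Axin, parted in direction. Dvl2 was higher, at raw signals of 3220 and 4191 with CPEB2 IgG, against 485 and 461 with control IgG, a log2 ratio of 3.01 ± 0.28 (SD, n = 2, adjusted p = 0.00543), an 8.06-fold difference. Dvl3 was lower, with 2596 and 1001 against 9163 and 7331 and a log2 ratio of -2.29 ± 0.79 (SD, n = 2, adjusted p = 0.0092). Dvl1 read 1406 and 1196 against 2050 and 2259, a log2 ratio of -0.68 (95% interval from -1.33 to -0.02, adjusted p = 0.0901). For both Dvl1 and Dvl3 both CPEB2 IgG arrays were below both control IgG arrays, and Dvl1 passed as lower with normexp background correction, a raw signal above 1000 or an intensity trend. The probe of Dvl3 had the highest GC content of the members at 76.7%, and its log2 ratio was -1.73 after centring within GC bins. The other probe of Dvl2 was near the floor at 28.3 and 20.3 against 28.2 and 22.8, with a log2 ratio of -0.03 (adjusted p = 0.954), and the mean of both was 1.49.

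In the destruction complex, Axin2 was higher and the other 4 genes did not pass. This 1 of 5 is near the 21.2% of all genes tested that were higher. Axin2, a scaffold that is itself a target of beta-catenin, read 993 and 2555 with CPEB2 IgG, against 129 and 143 with control IgG. The log2 ratio was 3.02 and 4.18 in the 2 experiments (mean 3.60, adjusted p = 0.00543), a 12.1-fold difference. This value belongs to the downstream probe, the one that holds TTTTAT. The upstream probe of Axin2 read 87.1 and 119.8 against 78.9 and 72.1, a log2 ratio of 0.49 (adjusted p = 0.277), and the mean of both probes was 2.05. Axin1, the constitutive scaffold, had -0.42 (adjusted p = 0.203). Gsk3a read 14044 and 17108 against 19320 and 18751 and Gsk3b 13132 and 15427 against 15252 and 16053, so both kinases were among the brightest members with either antibody. Their log2 ratios were -0.24 (95% interval from -0.87 to 0.38) and -0.08 (95% interval from -0.69 to 0.52), with adjusted p = 0.458 and 0.798, and the sign of both turned under other scalings. The downstream probe of Gsk3b had a log2 ratio of 0.75, which did not pass over all probes (adjusted p = 0.11). Apc, the other large scaffold, had -0.63 at its brighter probe and 0.56 at the downstream one (adjusted p = 0.151 and 0.189 over all probes). The brighter probe of Apc passed as lower with normexp, centring within GC bins or an intensity trend.

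Ctnnb1, which encodes beta-catenin, did not pass. It read 6741 and 9008 with CPEB2 IgG, against 5681 and 4754 with control IgG, and both CPEB2 IgG arrays were the higher ones. The log2 ratio was 0.64 ± 0.44 (SD, n = 2), with a 95% interval from -0.07 to 1.35 and an adjusted p of 0.123 from limma. It passed with normexp background correction, a raw signal above 1000 or an intensity trend.

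Of the Tcf/Lef factors, which carry beta-catenin to DNA, Tcf7 and Lef1 were higher, 2 of 4, where 21.2% of all genes tested were. Tcf7 read 192 and 130.1 with CPEB2 IgG, against 62.4 and 37.8 with control IgG, with nearly the same ratio in both experiments, 1.70 and 1.81 on the log2 scale (adjusted p = 0.00719), and a mean of 1.01 with normexp. Lef1 was brighter, with 825 and 684 against 413 and 220.1 and a log2 ratio of 1.37 ± 0.41 (SD, n = 2, adjusted p = 0.0171). Both probes of Lef1 rose, the other by 1.17 (adjusted p = 0.0346 over all probes). In fits with 1 array left out, whose spread came from the other antibody's arrays, Tcf7 had 1.48 without CPEB2 IgG replicate 1 (adjusted p = 0.0599). Lef1 had 1.24 and 1.51 without CPEB2 IgG replicate 1 or 2 (adjusted p = 0.121 and 0.0987) and 0.95 without control IgG replicate 2 (adjusted p = 0.108). Tcf7l1 and Tcf7l2 had log2 ratios of 0.42 and -0.42 and did not pass. The 3 probes of Tcf7l2 gave -0.42, -0.77 and 0.81, and the last of these, the most downstream, was the one above 0.

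**Figure D2:**
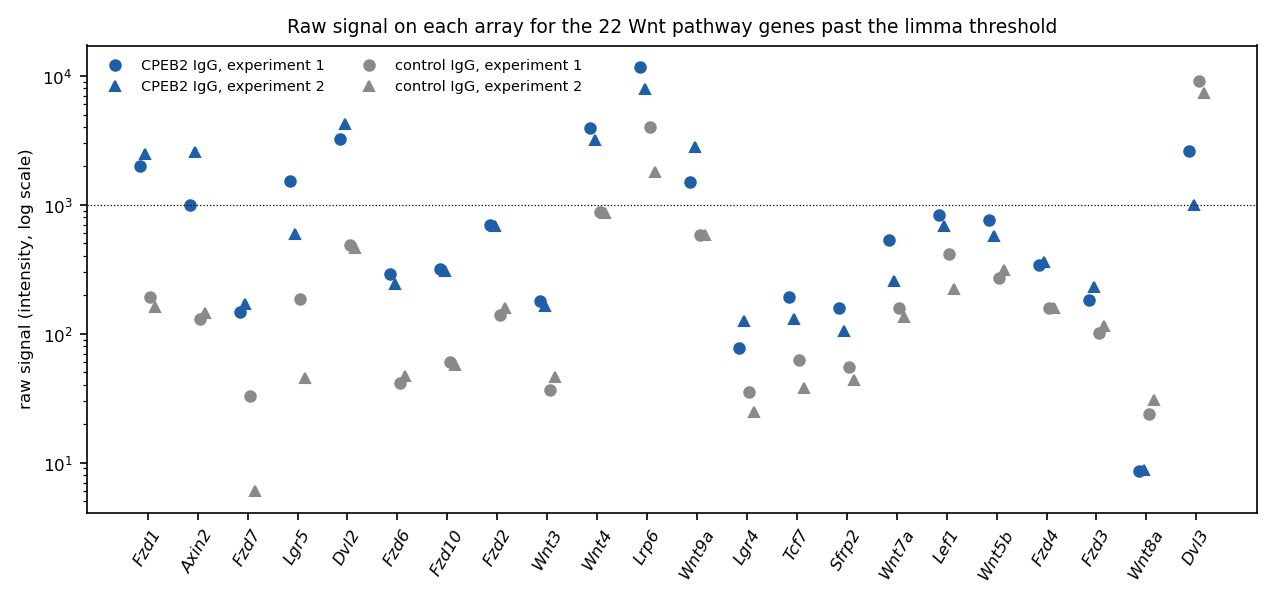
Raw signal (intensity, log axis) on each of the 4 arrays for the 22 members past the limma threshold, ordered by log2 ratio, with CPEB2 IgG in blue, control IgG in gray, experiment 1 as circles and experiment 2 as triangles. The dotted line marks 1000. In each gene the 2 blue points lie on one side of the 2 gray points, from Fzd1 at the left (1994 and 2464 against 192 and 159.9) to Dvl3 at the right.

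A rule with no test, which by construction takes only genes with a bright signal, was met by 9 of the 55 members. It asks for a mean ratio above 1.5 and a raw signal above 1000 in either CPEB2 IgG sample. These thresholds are taken here from the methods, without their filter on CPEs. The methods do not say whether the ratio is a mean or must hold in each experiment, and with a ratio above 1.5 in each experiment 7 met it. The 9 that met the rule on the mean ratio were Axin2, Ctnnb1, Dvl2, Fzd1, Gsk3b, Lgr5, Lrp6, Wnt4 and Wnt9a. Of all genes with such values, 13.9% met that rule, and the difference of the members from that share was not tested. Of the 9, Ctnnb1 and Gsk3b did not pass limma, and Gsk3b entered through its downstream probe. Conversely, 13 of the 20 members that were higher in limma, such as Fzd6, Fzd10 and Wnt3, stayed under a raw signal of 1000. With a raw signal above 500 the count was 14.

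Where a member had several probes along the gene, the one nearer the 3' end was usually recovered at the higher ratio. Of the 12 members with probes in order, the most downstream probe had the larger log2 ratio in 11, and the median difference between the end probes was 1.13. Over all genes with probes in order, it was larger in 3882 of 5400 (71.9%), with a median difference of 0.48. The widest gaps were in Axin2 (3.11 on the log2 scale), Fzd7 (2.24) and Wnt4 (2.17). In Gsk3b, Tcf7l2, Apc, Fzd5 and Lgr6 the upstream probe was below 0 and the downstream one above 0, with no probe of these genes past the threshold. Dvl2 was the exception, with its upstream probe higher by 3.04 than its downstream one. The downstream probe had the lower GC content in 10 of the 12 genes. After centring within GC bins the downstream probe was higher in 10 of 12, with a median difference of 0.82, against 63.6% and 0.29 over all genes. No member had probes past the threshold in opposite directions. Of the 66 member probes tested on their own, 22 were higher and 2 lower, where 12.7% and 14.8% of all probes tested were.

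**Figure D3:**
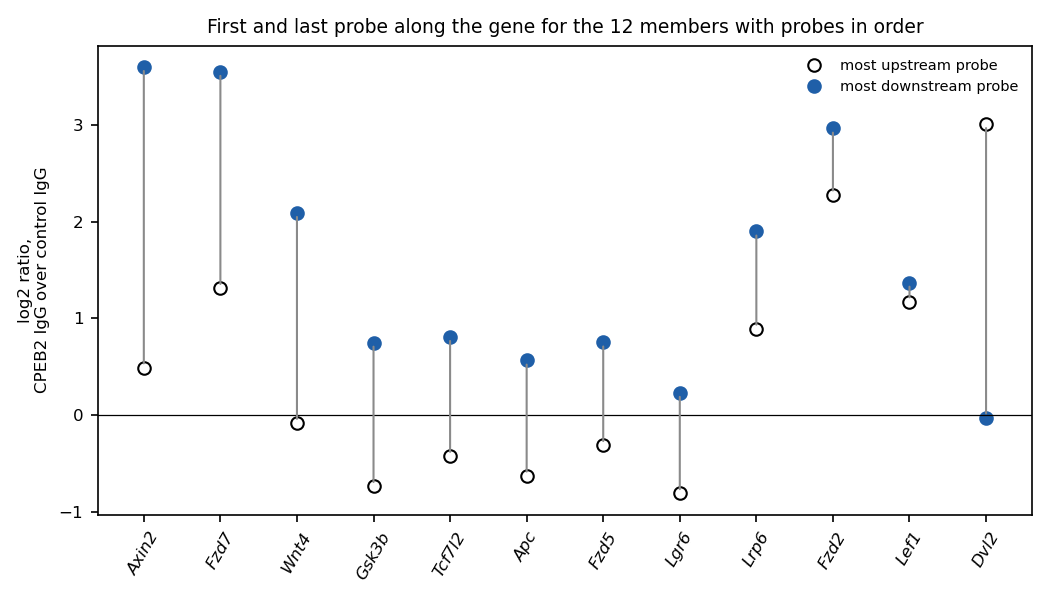
Log2 ratio of CPEB2 IgG over control IgG (y axis) at the most upstream probe (open) and the most downstream probe (blue) of the 12 members with probes in order along the gene, sorted by the difference. The blue point is the higher one in 11 genes, from a gap of 3.11 in Axin2 to 0.20 in Lef1, and the lower one in Dvl2.

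CPE letters within the probes could be read without a genome, though a 60-base probe covers little of a 3'-untranslated region. TTTTAT or TTTTAAT, on the sense strand, occurred in 4 of the 74 member probes (5.41%) and in 4.54% of all probes. The 3 tested members whose chosen probe held TTTTAT were Axin2, Dvl2 and Sfrp2, and each was higher with CPEB2 IgG. TTTTAAT lay in the probe of Dkk1, which was not well above background. Over all tested genes, 1132 had a chosen probe with either motif, and 39.1% of these were higher, with a median log2 ratio of 0.54. The reverse complement of either motif lay in 8 member probes (10.8%) and 6.50% of all probes, and 21.4% of the tested genes with it were higher. Probes with a motif had a median GC content of 35% against 41.7% over all, and their median log2 ratio was 0.41 after centring within GC bins. Most members that were higher, Fzd1 among them, held neither motif in the probe, which says nothing of the rest of the transcript.

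Probe GC content moved with the ratio among the members and among all genes. Across the 52 members the correlation of probe GC content with log2 ratio was -0.42, and across all 19698 genes it was -0.36. Genes are not independent replicates, and all share the same 4 arrays. The probes of the members that were higher had a median GC content of 38.3%, and those of the other tested members 41.7%. Among genes with probes of at most 35% GC, 38.3% were higher, and 7 of the 16 members there were. Between 35% and 40%, 24.2% of all genes and 5 of 11 members were higher. Between 40% and 45% the figures were 14.7% and 5 of 13. After centring within these bins the median log2 ratio was 0.56 over the members.

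**Figure D4:**
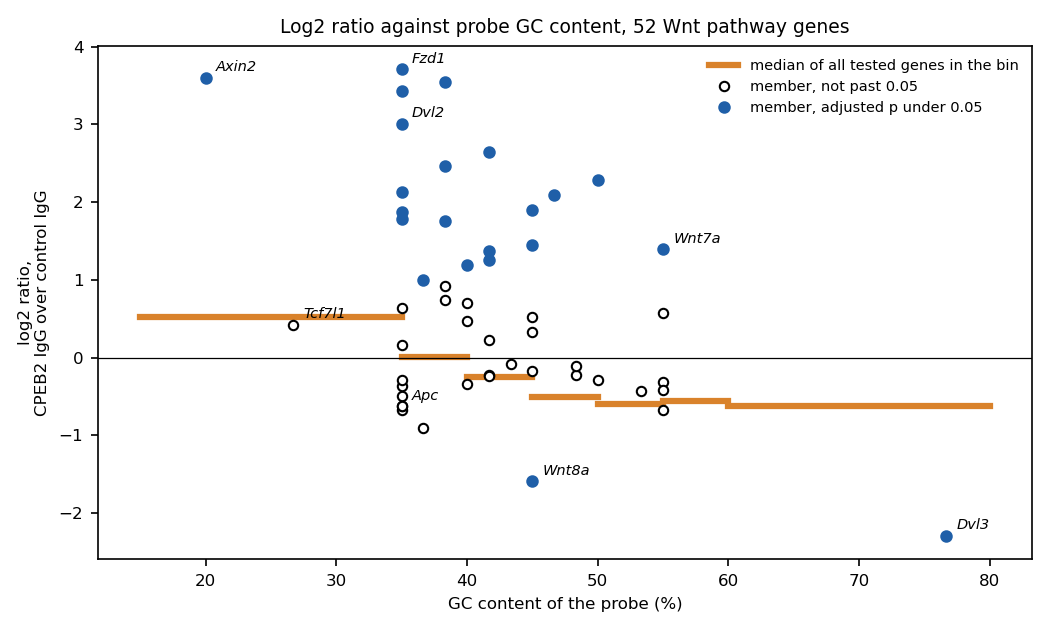
Log2 ratio of CPEB2 IgG over control IgG (y axis) against the GC content of the chosen probe (x axis, %) for the 52 tested members, filled where the limma adjusted p was under 0.05, with orange lines for the median of all tested genes in each GC bin. The median of all genes falls from 0.52 at up to 35% GC to -0.60 between 50% and 55%, and the members that were higher lie above these lines.

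Genes around these members were counted by role. Of 97 further pathway genes listed by role, 4 of them in 2 lists, 92 could be tested. Of these, 37 were higher, 9 were lower, and the median log2 ratio was 0.65. Of all 19698 genes tested, 21.2% were higher and 20.4% were lower, with a median of -0.11. Differences of the lists from these shares were not tested. Ligand secretion and modifiers had 6 of 10 higher. It was led by Wls, the carrier that escorts Wnt ligands to the cell surface, at raw signals of 4581 and 4722 with CPEB2 IgG, against 474 and 429 with control IgG (log2 ratio 3.42, adjusted p = 0.00543). Porcn, the acyltransferase that lipid-modifies Wnt ligands, read 5676 and 11675 against 1143 and 1248 (2.82, adjusted p = 0.00566). Other receptors and their turnover had 6 of 10 higher and 1 lower, and partners of the destruction complex 9 of 18 higher and 1 lower. Planar polarity genes and Dishevelled partners had 5 of 18 higher and 1 lower, nuclear cofactors 7 of 22 and 4, target genes 5 of 13 and 2, and 5 other secreted antagonists gave 0 calls in limma either way, at an unadjusted p under 0.05 too. Nlk, a kinase that acts on Tcf/Lef factors, read 29783 and 41925 against 5547 and 5340 (2.75, adjusted p = 0.00543). The largest falls were Dact2, a Dishevelled-binding protein (-2.64, adjusted p = 0.00685), Smarca4, a chromatin remodeler (-2.56, adjusted p = 0.00543), and Ccnd2, a cyclin (-2.02, adjusted p = 0.00601). Raw signals of Smarca4 were 4027 and 6183 with CPEB2 IgG, against 26253 and 35682 with control IgG.

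All 8 neuronal markers were tested, with raw signals from 226 upward, and 2 were higher. Since 19698 of the 24185 genes on the array could be tested, this does not identify the tissue. Of all genes tested, 21.2% were higher and 20.4% were lower. Astrocyte markers had 3 of 6 higher and 2 lower, with summed raw signals of 33945 and 32636 with CPEB2 IgG, against 19973 and 15319 with control IgG. Slc1a3 gave 28729 and 26888 of the former, and Aldh1l1 gave 12652 and 9607 of the latter. Their part in the results for members was not tested. Oligodendrocyte markers had 3 of 6 lower, microglial markers 1 higher and 2 lower of 6, and endothelial markers 1 higher and 1 lower of 5. Choroid plexus markers differed between the experiments instead, with summed raw signals of 8587 and 13084 for CPEB2 IgG and control IgG in experiment 1 and 1292 and 1062 in experiment 2. Ttr, the main choroid plexus transcript, made up most of this, with 6966 and 11608 in experiment 1 and 291 and 289 in experiment 2. Raw signals were over 1.2 times as high in experiment 1 with both antibodies for 8 of the 52 members (Apc, Dvl3, Lef1, Lgr5, Lgr6, Lrp6, Sfrp2 and Tcf7). The share of all genes above that ratio was not counted, so this says nothing particular to the members. The part of choroid plexus tissue in those signals was not tested. The share of spots well above background was 68.4% to 74.1% by array, 145 to 223 were marked as uneven or outliers, and none was saturated. Each antibody held its own positions on the single slide, so position and antibody cannot be told apart. The number of arrays limits the precision, since a two-sided exact permutation test of 1 gene within 2 pairs cannot go below p = 0.5.

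**Figure D5:**
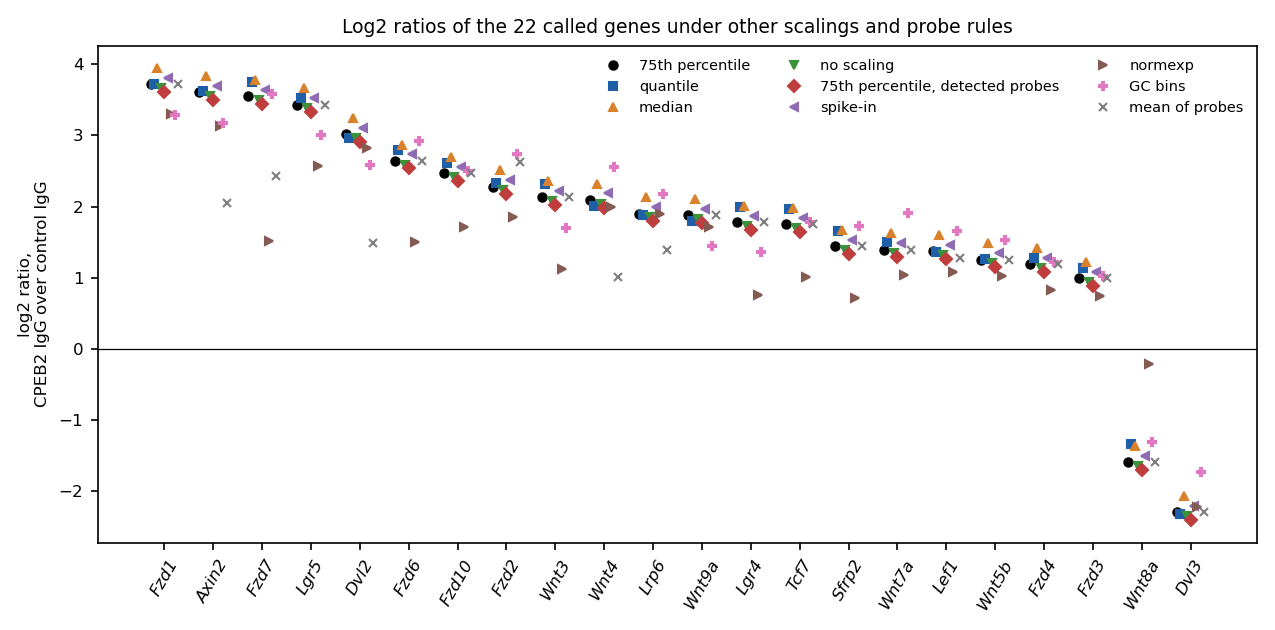
Log2 ratio of CPEB2 IgG over control IgG (y axis) of the 22 members past the limma threshold under the main 75th percentile scaling (black) and 8 other scalings, corrections or probe rules. Each gene stays on one side of 0, with the lowest value for Axin2 (2.05), Dvl2 (1.49) and Wnt4 (1.00) from the mean of probes, and Wnt8a nearest to 0 with normexp (-0.22).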

How the data were processed

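RNA recovered with CPEB2 IgG or control IgG was measured on 4 one-color Agilent mouse arrays, 2 for each antibody, grouped by the sample titles. For each array the authors deposited the output of Agilent Feature Extraction 10.5.1.1, from which the background-corrected intensity of each spot was taken, not yet scaled between arrays. Control spots and spots marked as uneven or outliers were left out, spots of a probe were averaged, and 66 probes without a value were dropped. Raw signal is this intensity. Log2 signals were scaled by subtracting the 75th percentile of each array over 55615 probes. The brightest probe well above background on at least 2 of 4 arrays stood for a gene. limma 3.58.1 in R 4.3.3 (Python 3.11.15 for the rest) was fitted to 19698 genes, and separately to 41138 probes, with the experiment as a block, 1 residual degree of freedom per gene and Benjamini-Hochberg adjustment, and was tested on simulated data. The pairing comes from the methods, in which 1 lysate was shared out over both antibodies, and arrays of one number deviated together (correlation 0.20). Strand came from the order of the annotated coordinates, which matched RefSeq strands for 99.2% of 22806 probes. The members and lists were chosen with earlier results of these data known. Values on each array are given for members past the adjusted p threshold of 0.05, for those with a raw signal above 1000 and for those with probes past the threshold in opposite directions, and others are summarised or named with their log2 ratio. Of the further pathway genes, the 3 largest changes each way, of one sign in both experiments, are named. Alternatives were other scalings, background correction (normexp with an offset of 50), filters, probe rules, models and thresholds, and arrays left out. The sequence of 1 probe is not reported here.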

Additional observations from a re-analysis of the deposited data

How the results depend on the processing

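Leaving out 1 array breaks its pair, so these fits have no block and take the spread from the other antibody. The 22 members past the threshold all kept their call under quantile normalization, median centring, no scaling, the percentile over detected probes, marked spots kept, centring within GC bins, the mean of probes and the fit without the replicate block, and 21 did with spike-in scaling (Fzd3 lost), normexp (Wnt8a lost) or an intensity trend (Wnt8a lost). Normexp was run with an offset of 50 added to each signal, which draws log2 ratios of dim members toward 0 by construction. They were 1.51 for Fzd7 and Fzd6, 1.13 for Wnt3, 1.01 for Tcf7, 0.76 for Lgr4 and 0.72 for Sfrp2. Quantile normalization moved the median log2 ratio of all genes by 0.13, median centring by 0.23, the percentile over detected probes by -0.11 and GC centring by 0.13. With no filter on dim probes 12 members were higher and 1 lower, as were 24 and 3 of the further pathway genes. Of the 22 members past the threshold, 13 kept their call there. Dvl3, Fzd3, Fzd4, Fzd7, Lef1, Lgr4, Wnt5b, Wnt7a and Wnt9a lost it. Without that filter limma called 0 of the members' probes in either direction (26 higher and 4 lower at an unadjusted p under 0.05, smallest adjusted p = 0.0961). With a raw signal above 1000 on an array, 8 members were higher, and 9 of their probes were higher and 4 lower. Members lower were 4 with normexp, 6 with GC centring and 4 with the intensity trend, and their probes lower 5, 5 and 4. Further pathway genes lower were 5 with spike-in scaling, 15 with normexp and 14 with the trend. The count past the raw signal and ratio thresholds was 14 with a raw signal above 500. Without the replicate block 22 members were higher and 3 lower, 37 and 11 of the further genes, and 21 and 2 probes, and the block decided the call of Fzd9, Sfrp1 and Wnt5a (adjusted p = 0.0489, 0.0433 and 0.0448 without it). Leaving out each array gave 15 to 17 members higher and 2 to 2 lower, 25 to 41 further genes higher and 4 to 10 lower, and 11 to 15 probes higher and 1 to 2 lower. Leaving out either experiment gave 6 to 8 members past the raw signal and ratio thresholds.

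Among alternatives with a test, signs turned in 37 cases, each of a member that had not passed. With GC centring the log2 ratio was 0.090 for Axin1, 0.20 for Fzd5, 0.038 for Gsk3a, 0.20 for Gsk3b, 0.18 for Lrp5, -0.0046 for Tcf7l1, 0.088 for Tcf7l2, 0.059 for Wnt1, 0.23 for Wnt11, -0.27 for Wnt2, 0.11 for Wnt8b and 0.35 for Wnt9b. With quantile normalization it was 0.0062 for Gsk3a, 0.098 for Gsk3b, 0.0053 for Wnt11, 0.062 for Wnt8b and 0.11 for Wnt9b. With median centring or spike-in scaling, each of which raises every gene alike, a value just below 0 turns by construction. With median centring it was 0.14 for Gsk3b, 0.0053 for Wnt1, 0.0019 for Wnt11, 0.053 for Wnt8b and 0.12 for Wnt9b, and with spike-in scaling 0.0073 for Gsk3b. With normexp it was -0.0029 for Wnt2, and with the mean of probes 0.22 for Fzd5 and -0.29 for Lgr6. Leaving out an array or an experiment gave -0.20 to 0.033 for Gsk3b, -0.75 to 1.21 for Lgr6, -0.25 to 1.19 for Sfrp5, -0.58 to 0.13 for Wnt1, -0.65 to 0.97 for Wnt2, -1.43 to 3.26 for Wnt2b, -1.22 to 0.64 for Wnt6 and -0.62 to 0.41 for Wnt9b. Leaving out an experiment, which allows no test, turned the sign of 10 members, none past the threshold, the 7 of these other than Gsk3b and also Dkk4 (0.32 without replicate 2), Wnt10b (0.045 without replicate 2) and Wnt16 (-0.031 without replicate 1). Apart from median centring and spike-in scaling, the cause was not tested.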
